A study of Homo sapiens with 4 samples.

Results

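The genes described here encode 9 enzymes that make serine from a glycolytic intermediate and pass its carbon to folate, namely PHGDH, PSAT1, PSPH, SHMT1, SHMT2, MTHFD1, MTHFD2, MTHFD1L and ALDH1L2. They were taken by symbol from a table of 28775 genes, and all 9 were among the 16675 genes that passed a filter on low counts. The set was chosen from these data because PSAT1 was higher in MORC2 KO cells. The KO and WT levels of the 9 genes, PSAT1 above all, are therefore given as a description with their errors and with no test, and a gene is said to be called when its adjusted p in the fit over all genes was under 0.05. The difference between the 2 KO libraries was not the value the set was chosen by, and it was tested. The spread between the KO libraries enters the KO against WT fit, so for PSAT1 that test is not fully separate from the choice.

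MORC2 is a nuclear ATPase of the MORC family that binds chromatin and works with the HUSH silencing complex. RNA was sequenced from HEK293T, a transformed human embryonic kidney line, in 2 MORC2 KO libraries (replicate 1 from gRNA 1, replicate 2 from gRNA 2) and 2 WT libraries of the unedited line, with no further treatment. The KO libraries came from separately edited bulk populations and not from clones, the target sites of both guides lie 1 base apart, and the guide and the replicate cannot be told apart. The labels name HEK293T, whereas the methods of the study give HEK293 as the electroporated cells, and the growth conditions and media were not given in the sources used here. The comparison asks which transcripts differ between the MORC2 KO cells and the WT cells. The KO cells were electroporated with Cas9 and passaged, and no such step is described for WT. Effects of MORC2 loss and of that handling cannot be told apart.

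Serine synthesis branches from glycolysis at 3-phosphoglycerate. PHGDH oxidises it, PSAT1 adds an amino group and PSPH removes the phosphate to leave serine. SHMT1 in the cytosol and nucleus and SHMT2 in mitochondria move a carbon from serine to tetrahydrofolate, which leaves glycine. In mitochondria MTHFD2 oxidises that carbon, after which MTHFD1L releases it as formate or ALDH1L2 oxidises it to CO2. MTHFD1 takes formate up again in the cytosol, where it serves purine and thymidylate synthesis. Transformed cells in culture commonly express the mitochondrial branch at a high level, and several of these genes are known targets of ATF4, the transcription factor of the amino acid response.

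Between 53970043 and 64312514 read pairs per library were assigned to genes. MORC2 itself had 3064 and 3637 counts in KO replicates 1 and 2 against 5131 and 4669 in WT replicates 1 and 2. Its KO level was 61.1% of WT (log2 fold change -0.71, SE 0.06, adjusted p = 1.37e-04 by edgeR's quasi-likelihood test). MORC2 RNA was thus lower but not absent, and the value does not measure the protein. The study checked the knockout on protein by western blot for both gRNAs, and no value of that blot is given here. KO replicate 2 stood further from the other libraries than KO replicate 1 did, with a median absolute difference in log2 CPM over genes of 0.141 and 0.163 from the WT libraries against 0.0880 and 0.0882 for KO replicate 1. The WT libraries differed from each other by 0.0758. Of the HEK293T markers, VIM, CDH2, NEFL and NEFM were well covered and PAX2 had 69 to 106 counts. Among 14 markers of leukocytes, endothelial cells, fibroblasts and hepatocytes, the pan-leukocyte marker PTPRC and the collagen gene COL1A2 had at most 1 count in any library, and the highest was COL1A1 with 194 to 238 counts.

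PSAT1, the aminotransferase of serine synthesis, had the largest log2 fold change of the 9 genes, except without WT replicate 1, where ALDH1L2 was at 0.37 and PSAT1 at 0.35. It lies on chromosome 9 from 90454269 to 90487311 of T2T-CHM13v2.0 in 9 exons and overlaps no other gene. Its counts were 29861 and 37002 in KO replicates 1 and 2 against 24045 and 22070 in the WT pair. As TMM-scaled CPM, which are counts scaled to the library size, these were 499 and 560 in KO against 404 and 415 in WT. Both KO libraries lay above both WT libraries, and KO replicate 2 was the highest. The KO mean was 129% of the WT mean, a log2 fold change of 0.37 (SE 0.07, 95% interval 0.22 to 0.52). PSAT1 was the 1 member called higher, where 0.588% of all genes tested were called higher and 0.0300% lower. Without WT replicate 1 the log2 fold change was 0.35 and without WT replicate 2 it was 0.39, and neither was called. It was also not called with a replicate block and offsets on GC content and length together (0.33). Without KO replicate 1 the log2 fold change of PSAT1 was 0.44, and without KO replicate 2 it was 0.29. PSAT1 was chosen on this contrast, so these values describe it and lend its call no support.

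PHGDH, the enzyme at the entry of the pathway, lies on chromosome 1 from 119725174 to 119757460 in 12 exons. It had 452 and 475 CPM in KO replicates 1 and 2 and 402 and 418 CPM in WT replicates 1 and 2. The groups did not overlap, and the KO mean was 113% of WT (log2 fold change 0.18, SE 0.06, 95% interval 0.04 to 0.31). PSPH, the phosphatase that completes the pathway, lies on chromosome 7 from 56170861 to 56211278 in 12 exons on the minus strand. It had 66.2 and 62.9 CPM in KO against 58.5 and 59.8 CPM in WT (log2 fold change 0.13, SE 0.06, 95% interval -0.0016 to 0.25). Both KO libraries were above WT here too, but KO replicate 1 was the higher of the KO libraries, the opposite order from PSAT1 and PHGDH. Neither PHGDH nor PSPH was called, except PHGDH without KO replicate 1 (0.20). In the ratio of PSAT1 to PHGDH within a library, per kb of exons, the KO libraries gave 0.935 and 0.998 and the WT libraries 0.849 and 0.839, so the PSAT1 transcript was higher against that of PHGDH in both KO libraries. The ratio of PSPH to PHGDH was 0.104 and 0.0944 in KO and 0.104 and 0.102 in WT, and the groups overlapped.

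**Figure D1:**
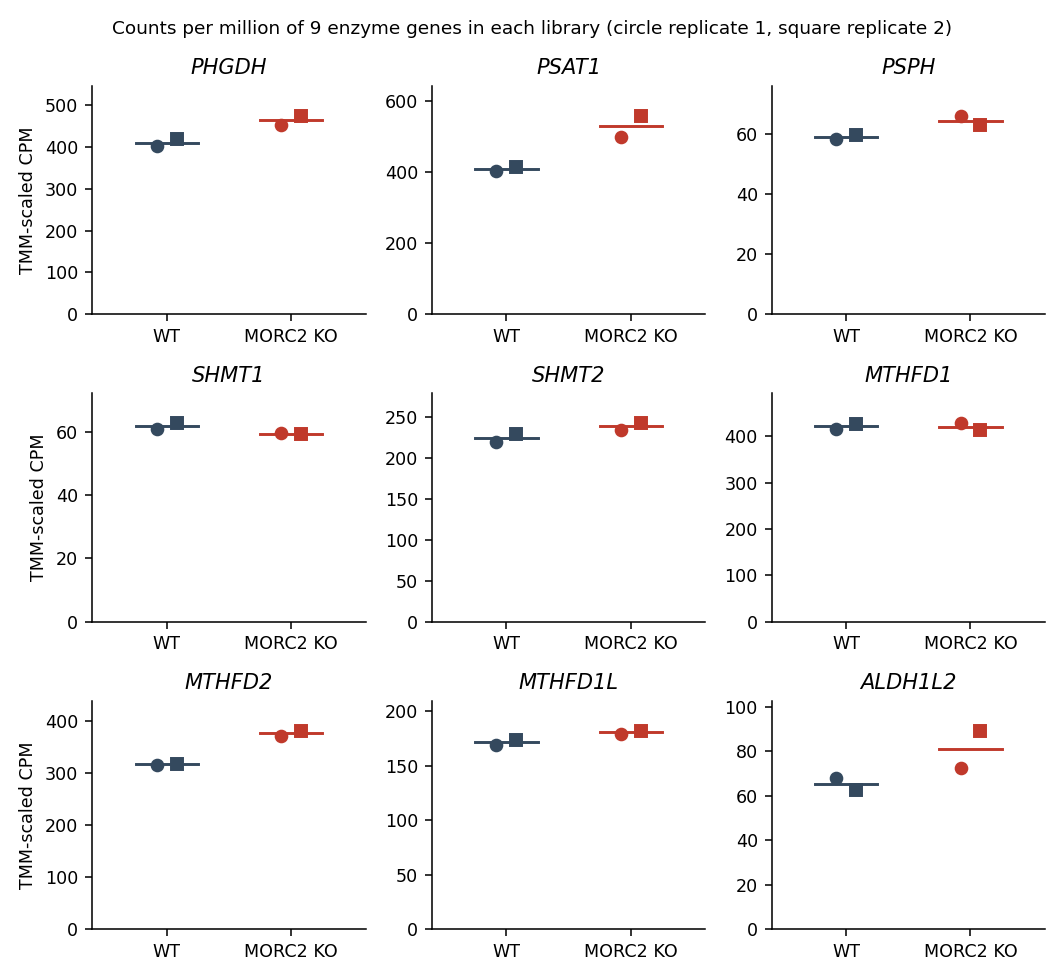
TMM-scaled CPM (linear axes from 0) of each of the 9 genes in the WT libraries (dark) and the MORC2 KO libraries (red), with circles for replicate 1, squares for replicate 2 and lines at the group means. PSAT1 sat at 499 and 560 CPM in KO against 404 and 415 in WT, while MTHFD1 overlapped between the groups.

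The hydroxymethyltransferases split. SHMT2, the mitochondrial enzyme, is on chromosome 12 from 57197949 to 57203173 in 14 exons. It had 234 and 242 CPM in KO and 219 and 229 CPM in WT (log2 fold change 0.09, SE 0.06, 95% interval -0.04 to 0.21). SHMT1, the cytosolic enzyme, is on chromosome 17 from 18274679 to 18310356 in 12 exons on the minus strand. It had 59.6 and 59.1 CPM in KO and 60.9 and 62.7 CPM in WT (log2 fold change -0.06, SE 0.06, 95% interval -0.18 to 0.07). SHMT2 was slightly above WT in both KO libraries and SHMT1 slightly below, and neither was called. SHMT1 was the 1 member of which both KO libraries lay below both WT libraries, where 23.4% of all genes tested did so. The ratio of SHMT2 to SHMT1 per kb was 3.78 and 3.93 in KO against 3.47 and 3.51 in WT.

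In the mitochondrial folate branch, MTHFD2 and ALDH1L2 had larger differences than MTHFD1L. MTHFD2, the dehydrogenase and cyclohydrolase that many tumours express strongly, lies on chromosome 2 from 74207390 to 74226316 in 9 exons. It had 22272 and 25228 counts in KO replicates 1 and 2 against 18781 and 16941 in WT, or 372 and 382 CPM against 316 and 318. The WT libraries were close to each other and so were the KO libraries, and the KO mean was 119% of WT (log2 fold change 0.25, SE 0.06, 95% interval 0.12 to 0.38). MTHFD2 was not called in the comparison of both KO libraries with WT. It was called with library sizes alone (0.29), without the filter on low counts (0.25), with loess offsets on abundance (0.32), with DESeq2 (0.24) and without KO replicate 1 (0.26) or KO replicate 2 (0.23).

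ALDH1L2, the mitochondrial enzyme that oxidises 10-formyltetrahydrofolate to CO2, lies on chromosome 12 from 104981395 to 105046228 in 23 exons on the minus strand. It had 4345 counts in KO replicate 1 and 5897 in KO replicate 2 against 4047 and 3342 in WT, or 72.7 and 89.3 CPM against 68.0 and 62.8. KO replicate 1 was just above the higher WT library and KO replicate 2 well above it. The KO mean was 124% of WT (log2 fold change 0.31, SE 0.09, 95% interval 0.12 to 0.49) and was not called, and its standard error was the largest of the 9. It was called without KO replicate 1 (0.43), without the filter on low counts (0.31) and with a replicate block (0.30), and without KO replicate 2 the log2 fold change was 0.15 and was not called. MTHFD1L, the mitochondrial formate-producing synthetase, lies on chromosome 6 from 152066259 to 152302476 in 35 exons. It had 179 and 182 CPM in KO and 169 and 174 CPM in WT (log2 fold change 0.07, SE 0.06, 95% interval -0.05 to 0.20), with the KO libraries above WT by little and no call. The ratio of ALDH1L2 to MTHFD1L per kb was 0.320 and 0.387 in KO and 0.317 and 0.285 in WT, so that KO replicate 1 was close to WT replicate 1.

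MTHFD1, the cytosolic enzyme with 3 activities on folate, lies on chromosome 14 from 58596072 to 58667774 in 28 exons. It had 428 and 412 CPM in KO replicates 1 and 2 and 416 and 427 CPM in WT. The groups overlapped and the log2 fold change was -0.0044 (SE 0.06, 95% interval -0.14 to 0.13), with a sign that turned under 2 other scalings, to 0.03 with library sizes alone and 0.07 with loess offsets on abundance. The ratio of MTHFD2 to MTHFD1 per kb was 0.610 and 0.649 in KO and 0.532 and 0.522 in WT. Within each library the mitochondrial transcript was thus higher against the cytosolic one in KO than in WT. MTHFD2 was also higher against SHMT2, another mitochondrial enzyme, at 0.929 and 0.921 in KO and 0.840 and 0.811 in WT. These ratios do not depend on how libraries were scaled, and they were not tested.

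Counted over the set, 7 of 9 genes had both KO libraries above both WT libraries, where 24.1% of all genes tested did so, and the 7 were all except SHMT1 and MTHFD1. The median log2 fold change of the 9 was 0.13, against 0.0054 over all genes tested. The genes were chosen with these values known, so the counts describe the set and nothing is read from them.

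Each KO library was then compared with the WT pair on its own. Those comparisons share the WT libraries, and the lone KO library is taken to vary as the WT libraries do. In KO replicate 1, 2 of 9 genes were called higher, where 0.534% of all genes tested were called higher and 0.0480% lower. They were PSAT1 (log2 fold change 0.29, SE 0.05) and MTHFD2 (0.23, SE 0.05). In KO replicate 2, 4 of 9 were called higher, where 8.47% of all genes tested were called higher and 10.3% lower. They were PSAT1 (0.45), ALDH1L2 (0.45), MTHFD2 (0.27) and PHGDH (0.21), and no member was called lower in either KO library. KO replicate 2 was the library further from WT over all genes. As both comparisons use the same WT libraries and PSAT1 was chosen on them, a call in each is a description and no support for the other. The median log2 fold change of the 9 was 0.14 in KO replicate 1 and 0.11 in KO replicate 2.

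**Figure D2:**
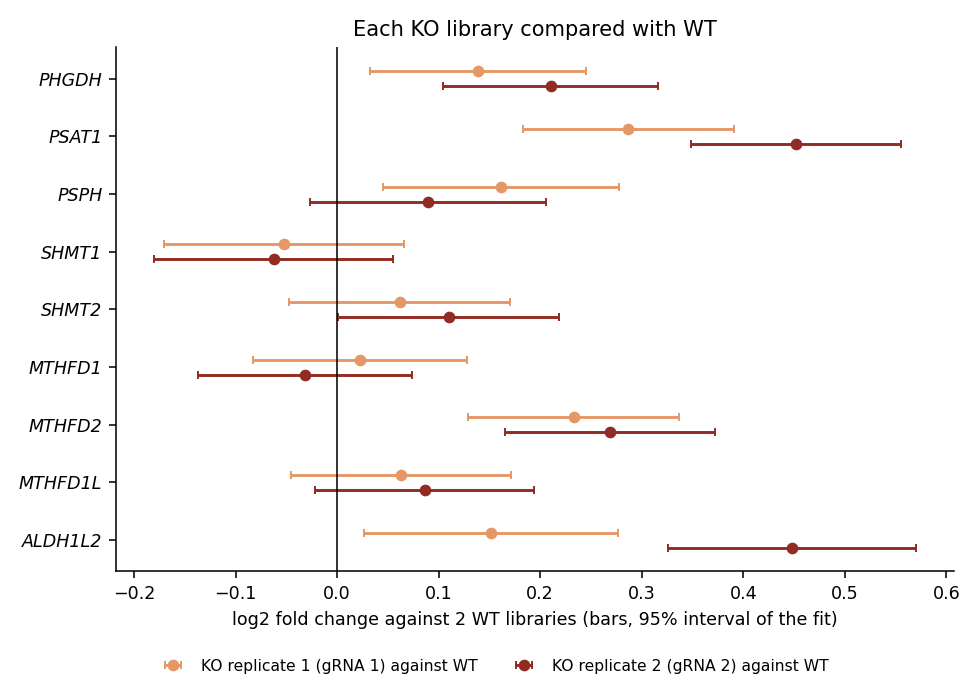
Log2 fold change (x axis) of each gene in KO replicate 1 (light) and KO replicate 2 (dark) against the WT libraries, with bars for the 95% interval of the fit. ALDH1L2 is the gene where the KO libraries were furthest apart, at 0.15 and 0.45, and MTHFD2 the one where they nearly coincided among those called, at 0.23 and 0.27.

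KO replicate 2 was higher than KO replicate 1 for 6 of 9 members, and for 8463 of all 16675 genes tested. The difference between the KO libraries was called for ALDH1L2 alone, where 0.858% of all genes tested were called in either direction. For ALDH1L2 it was 0.30 on the log2 scale (SE 0.07, 95% interval 0.15 to 0.44, adjusted p = 0.0489 by edgeR's quasi-likelihood test). That test compares 1 library with 1 and takes its spread from the WT pair, shared over genes. In edgeR's newer form ALDH1L2 was not called. For PSAT1 the difference was 0.17 (95% interval 0.04 to 0.29, edgeR adjusted p = 0.144), which did not pass the test over all genes. For MTHFD2 it was 0.04 (95% interval -0.08 to 0.16, edgeR adjusted p = 0.79) and for PHGDH 0.07 (95% interval -0.05 to 0.19, edgeR adjusted p = 0.561). The remaining 5 lay between -0.07 for PSPH and 0.05 for SHMT2. Those intervals leave room for differences of the size seen between KO and WT in SHMT2 or MTHFD1L.

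Levels of different genes were compared as CPM per kb of exonic length. In WT the order was PHGDH at 219.9, PSAT1 at 186, MTHFD1 at 134, SHMT2 at 85.3, MTHFD2 at 70.4, MTHFD1L at 29.3, SHMT1 at 24.4, PSPH at 22.6 and ALDH1L2 at 8.80. Every neighbouring pair was separated in both WT libraries, the closest being SHMT1 (24.1 to 24.8) and PSPH (22.3 to 22.8). In KO, PSAT1 (226 to 254) came into the range of PHGDH (242 to 254), and both KO libraries of PSPH (mean 24.6) lay above those of SHMT1 (23.4 to 23.6). The first enzymes of serine synthesis were thus the most abundant transcripts of the set, and PSPH, the last step, was the second lowest in WT.

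The levels of MTHFD2 and, by less, SHMT1, MTHFD1 and SHMT2 are understated on this scale. Reads were counted without strand and those that overlap more than 1 gene were left out, and 29.4% of the exonic bases of MTHFD2 overlap SLC4A5 on the opposite strand. The share was 7.28% for SHMT1 with SMCR8, 5.64% for MTHFD1 with ZBTB25 and 1.26% for SHMT2 with COXFA4L2, and the other 5 overlap no gene. Per kb of exonic bases that overlap no gene, MTHFD2 was at 99.8 and SHMT2 at 86.4 in WT, so their order turned. On that scale SHMT1 (25.2 to 25.4) was also above PSPH (mean 24.6) in KO, as in WT, and the order of the other genes stayed as given. SLC4A5 had 163 to 240 counts per library and a log2 fold change of -0.02 (edgeR adjusted p = 0.973). Reads that map to several places were also counted, so copies of these genes could take or lend reads. Of 14 pseudogenes looked for, the table held MTHFD2P1, with 2 to 7 counts per library.

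**Figure D3:**
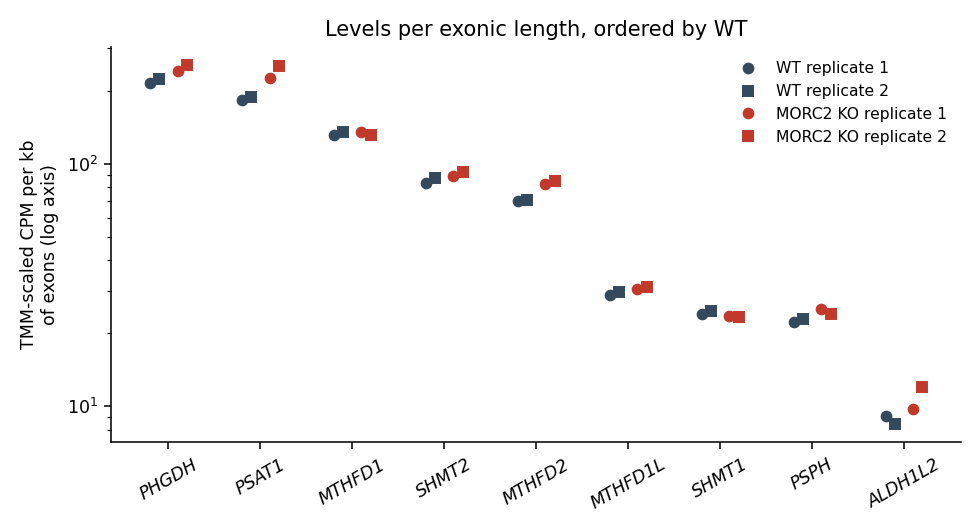
Level of each gene as TMM-scaled CPM per kb of exons (log axis) in the 4 libraries, ordered by the WT mean. PHGDH and PSAT1 lead and ALDH1L2 is lowest, and the KO libraries of PSAT1 reach those of PHGDH.

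The promoters of the genes with larger differences (PSAT1, PHGDH, MTHFD2) and of MTHFD1L are shown so that their sequence can be set beside these values. RefSeq start sites on GRCh38.p14 gave a window of 250 bases before to 50 after the start for 6 of 9 members, and PSPH, SHMT2 and ALDH1L2 had none. The 250 bases before the start follow, 5′ to 3′ on the strand of the gene, with capitals for CCAAT (the CCAAT box, read as CCAAT or ATTGG on either strand) and for TGATGNAA (the core of the element that ATF4 binds with a C/EBP protein, also searched on both strands). PSAT1 spans chr9:78296875-78297124 and PHGDH chr1:119711684-119711933, while MTHFD2 spans chr2:74198365-74198614 and the second of 4 MTHFD1L starts chr6:150866197-150866446, all on the plus strand.
PSAT1: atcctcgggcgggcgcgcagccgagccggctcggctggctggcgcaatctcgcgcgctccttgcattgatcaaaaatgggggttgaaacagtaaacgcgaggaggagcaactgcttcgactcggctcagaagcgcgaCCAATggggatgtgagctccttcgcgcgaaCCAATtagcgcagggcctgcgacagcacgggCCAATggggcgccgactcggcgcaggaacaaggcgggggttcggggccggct
PHGDH: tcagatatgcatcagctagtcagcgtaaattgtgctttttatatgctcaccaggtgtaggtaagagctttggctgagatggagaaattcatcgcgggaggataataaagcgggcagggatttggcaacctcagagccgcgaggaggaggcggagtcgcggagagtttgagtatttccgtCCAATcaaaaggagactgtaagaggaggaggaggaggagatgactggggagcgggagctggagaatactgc
MTHFD2: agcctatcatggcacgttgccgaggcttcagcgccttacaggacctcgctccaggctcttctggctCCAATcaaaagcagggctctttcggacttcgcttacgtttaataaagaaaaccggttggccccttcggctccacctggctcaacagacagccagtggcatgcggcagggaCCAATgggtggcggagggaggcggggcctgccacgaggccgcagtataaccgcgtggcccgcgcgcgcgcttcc
MTHFD1L: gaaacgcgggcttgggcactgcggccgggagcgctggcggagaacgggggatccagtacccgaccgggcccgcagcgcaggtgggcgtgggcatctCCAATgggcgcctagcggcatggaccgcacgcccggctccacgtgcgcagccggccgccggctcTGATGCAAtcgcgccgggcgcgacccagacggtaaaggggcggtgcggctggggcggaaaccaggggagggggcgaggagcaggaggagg

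PSAT1 held CCAAT at 113, 83 and 52 bases before its start, MTHFD2 at 184 and 74, and PHGDH at 71. SHMT1, which was not called, held it at 76 and, on the opposite strand, at 25 bases before its start. MTHFD1, also not called, held it 216 bases before and, on the opposite strand, 35 after its start. MTHFD1L held it 154 bases before the second start. All 6 members with a window held CCAAT, as did 34.6% of all promoter windows of this length and 39.7% of genes with a window. The search for CCAAT was added after the sequences were seen. TGATGNAA was found in MTHFD1L alone among these 6, as TGATGCAA at 90 bases before the second start, against 3.62% of all windows and 4.46% of genes. The same bases lie 24 after the first start and 129 before the third, and the window of the last start held none. MTHFD1L was not called in the comparisons above, and PSAT1, MTHFD2 and PHGDH, which were called in at least 1 KO library, did not hold these letters in their windows. A match is a run of letters and not a measured site, and elements outside the window, such as in introns, were not searched.

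The rest of folate metabolism gave no calls when both KO libraries were compared with WT. In that comparison 0.588% of all genes tested were called higher and 0.0300% lower, so 0 calls do not set these lists apart. Of 11 other folate enzymes, 0 were called by edgeR at an adjusted p under 0.05, with log2 fold changes from -0.15 for MTHFS to 0.19 for FTCD and a median of -0.02. At an unadjusted p under 0.05, 1 of them was lower and 0 were higher. Over all 16675 genes tested, 1358 were higher and 1029 lower at that threshold. FTCD had at most 74 counts in a library. TYMS, which makes thymidylate with carbon from folate, was -0.14 (edgeR adjusted p = 0.314). Of the folate transporters, 3 of 5 were tested and 0 called, from SLC46A1 at 0.05 to SLC25A32, the mitochondrial folate carrier, at -0.16. Among the 4 glycine cleavage genes, which break glycine down in mitochondria, 0 were called, and AMT was 0.55 on 89 to 190 counts and GCSH -0.28 (edgeR adjusted p = 0.0903). At an unadjusted p under 0.05, the transporters had 1 lower and 0 higher, and the glycine cleavage genes 1 of each. The medians of the transporters and of the glycine cleavage genes were -0.11 and 0.04. In KO replicate 2 alone, where 8.47% of all genes tested were called higher and 10.3% lower, TYMS (-0.18), GGH (-0.21), SLC25A32 (-0.24) and GCSH (-0.34) were called lower and AMT (0.76) higher. In KO replicate 1 alone, 0 genes of these 3 lists were called, where 0.534% of all genes tested were called higher and 0.0480% lower.

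Genes that use or carry the products were likewise not called in the comparison of both KO libraries. There 0.588% of all genes tested were called higher and 0.0300% lower, so 0 calls do not set these lists apart either. The 6 genes of purine synthesis, which takes up formyl groups, had a median of -0.09 and ranged from -0.14 for PAICS to 0.02 for ATIC. The 6 tested of 7 methionine cycle genes ran from -0.10 for AHCY, which clears S-adenosylhomocysteine, to 0.57 for BHMT, which had at most 13 counts. Of the serine users, 12 of 14 were tested, 7 had both KO libraries above both WT libraries (24.1% of all genes tested), and they ran from PTDSS1, a phosphatidylserine synthase, at -0.15 to SERINC4 at 0.23. The sideroflexins, which carry serine into mitochondria, ran from -0.05 for SFXN1 to 0.04 for SFXN2. By edgeR's adjusted p, 0 genes of these 4 lists were called in either direction in that comparison. At an unadjusted p under 0.05 the serine users had 3 higher and 1 lower and the others 0. Over all 16675 genes tested, 1358 were higher and 1029 lower at that threshold. In KO replicate 2 alone, 8.47% of all genes tested were called higher and 10.3% lower. Of these 4 lists, CBS (0.21) and SPTLC2 (0.34), which use serine for cystathionine and sphingolipids, were called higher there. PTDSS1 (-0.22), PAICS (-0.19), ADSL (-0.24) and AHCY (-0.24) were called lower. In KO replicate 1 alone, 0 genes of these 4 lists were called, where 0.534% of all genes tested were called higher and 0.0480% lower.

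Glycolysis, which supplies 3-phosphoglycerate, gave values mostly below 0. Of 15 glycolytic genes tested, 0 were called in the comparison of both KO libraries by edgeR's adjusted p. Over all genes tested, 0.588% were called higher there and 0.0300% lower. At an unadjusted p under 0.05, 2 were lower and 0 higher, against 1029 and 1358 of all 16675 genes tested. In the comparison of both KO libraries 13 of the 15 had a negative log2 fold change, as did 8082 of all 16675 genes tested. Of the 15, 8 had both KO libraries below both WT libraries, where 23.4% of all genes tested did so. The median was -0.11, from -0.19 for PGAM1, the mutase just after the branch to serine, to 0.03 for PFKP. In KO replicate 2, 10 of 15 were called lower, where 10.3% of all genes tested were, and in KO replicate 1, 0 were, where 0.0480% of all genes tested were. PGAM1 was -0.06 in KO replicate 1 and -0.34 in KO replicate 2, and the difference between these was called (edgeR adjusted p = 0.0426), as was that of ALDOC (edgeR adjusted p = 0.0468). In KO replicate 2 the called glycolytic genes were thus lower than WT while PSAT1 and PHGDH were higher. These values depend on the scaling. With loess offsets on abundance every member moved up in KO against WT, PSAT1 from 0.37 to 0.45 and PHGDH from 0.18 to 0.25. Values under that fit are not given here for the glycolytic genes, and the part of abundance in them was not tested.

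Of 14 genes known to respond to amino acid shortage, 4 rose in MORC2 KO and 0 fell, where 0.588% of all genes tested were called higher and 0.0300% lower. They were SLC7A11, the cystine exchanger, at 0.58 (SE 0.10, edgeR adjusted p = 0.0192), PCK2, the mitochondrial phosphoenolpyruvate carboxykinase, at 0.53 (SE 0.09, 0.0124), ASNS, the asparagine synthetase, at 0.40 (SE 0.08, 0.0482), and CTH, which makes cysteine, at 0.32 (SE 0.06, 0.0318). SLC7A11 had 9827 and 14097 counts in KO replicates 1 and 2 against 7927 and 6385 in WT. PCK2 had 2188 and 2962 in KO against 1674 and 1516 in WT. The KO libraries were above WT in each of these 4 genes, and KO replicate 2 was above KO replicate 1, the order also seen in PSAT1. The median of the list was 0.28, and 11 of 14 had both KO libraries above both WT libraries (24.1% of all genes tested). ATF4 itself was the lowest, at -0.0043, with overlapping groups, and DDIT3 was 0.02. In KO replicate 1, 3 of 14 were called higher and in KO replicate 2, 9 of 14, where 0.534% and 8.47% of all genes tested were. Over 16 fits, the reported one and those that changed 1 choice or left out 1 library, which were added for these genes after the data were seen, PCK2 was called in 16, SLC7A11 in 14, CTH in 13 and ASNS in 11. DESeq2 did not call SLC7A11 (0.57, adjusted p = 0.186), CTH was not called without WT replicate 1 or WT replicate 2 (0.31 and 0.32), and ASNS was not called without WT replicate 2 (0.36). The difference between the KO libraries was called for SLC7A11 (0.38, edgeR adjusted p = 0.0353). This list was written with earlier results on these genes known, so its counts are not independent evidence of a direction.

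Proliferation genes gave 0 calls of 12 by edgeR's adjusted p, where 0.588% of all genes tested were called higher and 0.0300% lower. At an unadjusted p under 0.05, 1 was lower and 0 higher, against 1029 and 1358 of all 16675 genes tested. The median was -0.04, with a range from RRM2 at -0.16 to TOP2A at 0.04. Culture density, growth rate and medium were not recorded in the sources used here, and their part in the differences was not tested. In a bulk library, a change in some of the edited cells and a smaller change in all of them cannot be told apart.

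Over the 4 libraries, the genes whose log2 CPM followed PSAT1 most closely, by the smallest root mean square difference after centring each gene, were LOC101929767 (0.0065), RMI2 (0.0075), PCSK6 (0.013), SCN11A (0.013) and ARSG (0.017). RMI2 acts in genome stability with the BLM helicase, PCSK6 is a proprotein convertase, SCN11A a sodium channel and ARSG a sulfatase. None of these 5 belongs to the serine or folate lists. Their log2 fold changes, 0.36 to 0.39, follow from how they were chosen. RMI2 and PCSK6 were called higher (edgeR adjusted p = 0.0456 and 0.0136) and the others were not. Being picked for likeness to PSAT1, they are no further evidence of a rise. LOC101929767 and SCN11A had 75 to 140 counts in a library. The nearest member of the set was MTHFD2, 401st of all genes tested by this measure, before ALDH1L2 at 447 and PHGDH at 951. The likeness rests on 4 points, so many genes can come close to PSAT1 by it.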

How the data were processed

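Poly-A RNA of 2 MORC2 KO and 2 WT HEK293T libraries was measured, grouped by the labels. Reads were mapped to T2T-CHM13v2.0 by the authors (Subread 2.0.6), who deposited raw counts of pairs per RefSeq gene from featureCounts 2.0.6, with multi-mapping reads counted and no strand option according to the command in the file header (the methods of the study name default options, under which multi-mapping reads are not counted). Symbols were matched by Entrez identifier for 28763 of 28775 genes. Here, counts were filtered with filterByExpr (16675 genes), scaled by TMM (factors 0.986 to 1.03) and tested with edgeR 4.0.16 in its older quasi-likelihood form, on R 4.3.3, with Benjamini-Hochberg adjustment over all genes at 0.05. A fit with 3 levels (KO 1, KO 2, WT; 1 residual degree of freedom) gave each KO library. SE is the log2 fold change over the root of F. The p-values set a difference between groups against the spread within them. In the fit with 3 levels that spread comes from the WT pair alone. The spread is shared over genes, so each gene's value is drawn toward a trend over all genes and does not rest on its own counts alone. Chi-square per degree of freedom was 16.8 for the KO pair and 6.56 for the WT pair, more than counting noise alone gives, though libraries of 1 culture could differ as much. Fits were tested on simulated data.

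The members and lists were chosen with earlier results of these data known. Genes named are the 9 members, MORC2, every list gene called, the highest and lowest of each list and the 5 genes nearest PSAT1. TYMS, GGH, CBS, SPTLC2, ADSL, DDIT3, ALDOC, genes that overlap members and the markers were named after their values were seen. Alternatives were RLE or no scaling, other filters and thresholds, DESeq2 1.42.0, newer or robust edgeR, loess offsets, a replicate block and leaving out each library.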

Additional observations from a re-analysis of the deposited data

Results flagged for a closer look

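ALDH1L2 was called different between the KO libraries, and the call was lost in edgeR's newer form. The test set 1 library against 1, and its spread came from the WT pair, shared over genes. KO replicate 2 minus KO replicate 1 was 0.30 on the log2 scale (72.7 CPM in KO replicate 1 and 89.3 in KO replicate 2, edgeR adjusted p = 0.0489). The KO libraries come from different guides. WT replicates 1 and 2 were at 68.0 and 62.8 CPM. The guide, the culture and the library cannot be told apart.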

How the results depend on the processing

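With 2 libraries per genotype the spread between libraries, and not depth, limits these values. The members' directions held in all 15 alternative fits of each gene except for MTHFD1, which turned to 0.035 with library sizes alone and 0.071 with loess offsets on abundance, and which ranged from -0.045 to 0.024 when each library was left out in turn (positive without KO replicate 2 or WT replicate 2). Where the number of genes higher or lower, or of members called, moved by over 1.5 times, the counts were as follows. All genes called gave 98 higher and 5 lower. At an adjusted p under 0.10 there were 15 lower. Without a filter on low counts there were 463 higher, 182 lower and 3 members. Library sizes alone gave 2 members, loess offsets on abundance 8 lower and 2 members, DESeq2 17 lower and 2 members, and offsets on GC content and length 165 higher and 73 lower, which took the share of calls that were higher from 95.1% to 69.3%. With a replicate block there were 237 higher, 42 lower and 2 members (PSAT1 and ALDH1L2), and with the block and offsets on GC content and length 184 higher, 59 lower and 0 members, PSAT1 then being at 0.33. The replicate numbers are shared in name only (correlation of deviations -0.12). Crossing the numbers in the block, chosen after the data were seen, gave 903 higher, 809 lower and 4 members. Leaving out each library in turn gave 88 to 1397 genes higher, 9 to 2117 lower and 0 to 4 members higher, with the extremes of genes without KO replicate 1 and 0 members without either WT library. With loess offsets on abundance SHMT2 and MTHFD1L were also called in KO replicate 2, making 6 members. In edgeR's newer form 0 members differed between the KO libraries. Fits without a library leave 1 sample in a group, which is assumed to vary like the other. The cause of these changes was not tested.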
